A study of Mus musculus with 11 samples.

Results

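Integrins, tetraspanins and a small set of other adhesion receptors were followed in 11 B cell lymphomas of E-mu-BRD2 mice, as 46 genes of the 12393 that the expression arrays measured with probe sets of 1 gene. The members were defined by name, with earlier results of these data known: genes called Itga or Itgb with a number or letter, apart from Itga2b, Itgam, Itgax and Itgb7, genes called Tspan with a number, and Icam1, Icam2, Pecam1, Cd44, Cd47, Cd53, Cd37, Cd81, Cd82 and Cd151. Cd63, which the rule also names, is not analysed here. The members had 91 probe sets, and each gene is described by the probe set with the highest mean signal.

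All 11 mice carried the E-mu-BRD2 transgene, in which an immunoglobulin heavy chain enhancer drives the bromodomain protein BRD2 in B cells, and were of the FVB strain. The lymphomas were divided by severity into a marginal class (6 arrays, with spleens graded marginal in 1, mild in 2, 3 and 4, and moderate in 5 and 6) and a transitional class (5 arrays, with spleens graded severe in 1 and 2, mild in 3, and moderately severe in 4 and 5). Each array was taken as 1 lymphoma of 1 mouse, though the labels give no animal numbers, and all 11 were recorded as oligoclonal for immunoglobulin. The sources used here state neither the tissue sampled nor the mice's ages, and normal B cells are not analysed here.

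Integrins are receptors made of an alpha and a beta chain that bind matrix proteins or proteins of other cells, and their grip is switched on from inside the cell by talin and kindlin. Lymphocytes rely on LFA-1, the pair of Itgal and Itgb2, which binds the intercellular adhesion molecules Icam1 and Icam2, and on VLA-4, the pair of Itga4 and Itgb1, which binds Vcam1 and fibronectin. Tetraspanins are small proteins that cross the membrane repeatedly and hold integrins and other receptors in clusters. Cd37, Cd53 and Cd81 are tetraspanins known for their part in B cells.

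Of the 46 members, 32 were bright enough to be tested, having passed a filter that kept the upper 60% of probe sets by mean signal. The 32 were 9 integrin chains, 18 tetraspanins and 5 other adhesion receptors. The other 14 had mean signals from 7.98 to 66.5 and were not tested. They were Itga2, Itga3, Itga5, Itga7, Itga8, Itgb3, Itgb4, Itgb6, the neutrophil beta chain gene Itgb2l, the integrin-like gene Itgbl1, and Tspan1, Tspan6, Tspan10 and Tspan12. Itga8 had a signal of 286 on transitional 2 and at most 105 on the other arrays. Signals of different probe sets cannot be ranked as amounts of RNA, so levels are compared between arrays only.

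The arrays fell apart by lymphoma more than by class. Transitional 4 and 5 were the pair of arrays with the highest correlation over all tested probe sets (0.952), while each correlated with transitional 1 and 2 at 0.740 to 0.771. Marker genes moved with this. The summed signal of 9 B cell markers was 6477 to 9846 on transitional 4 and 5, 43705 to 69911 on the other transitional arrays and 23078 to 83980 on the marginal arrays. That of 8 T cell markers was 290 to 1686 on transitional 4 and 5 and 2356 to 22020 on the other 9 arrays. The sum of 8 erythroid markers ran the other way, at 60806 to 74638 on transitional 4 and 5, 1186 to 5722 on transitional 1, 2 and 3, and 16010 to 51282 on the marginal arrays. Granulocyte markers summed to 92002 to 169546 on transitional 4 and 5, to 9004 to 44802 on transitional 1, 2 and 3, and to 11148 to 214351 on the marginal arrays, with the highest sum on marginal 1. Each of the 9 B cell markers was lowest on transitional 4 and 5. Ms4a1, Cd79a and Cd22 had signals of at least 910 there. Pax5, dim on all arrays, had 4.2 and 12.2, against 58.7 to 128 on the other 9 arrays, and Fcer2a had 51.9 and 90.2. From transitional 1 and 2 to transitional 4 and 5 the log2 differences were −2.46 for Ms4a1, −2.36 for Cd79a, −2.11 for Cd22 and −2.24 for Pax5. In such bulk RNA, fewer cells of a type and less RNA per cell cannot be told apart.

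**Figure D1:**
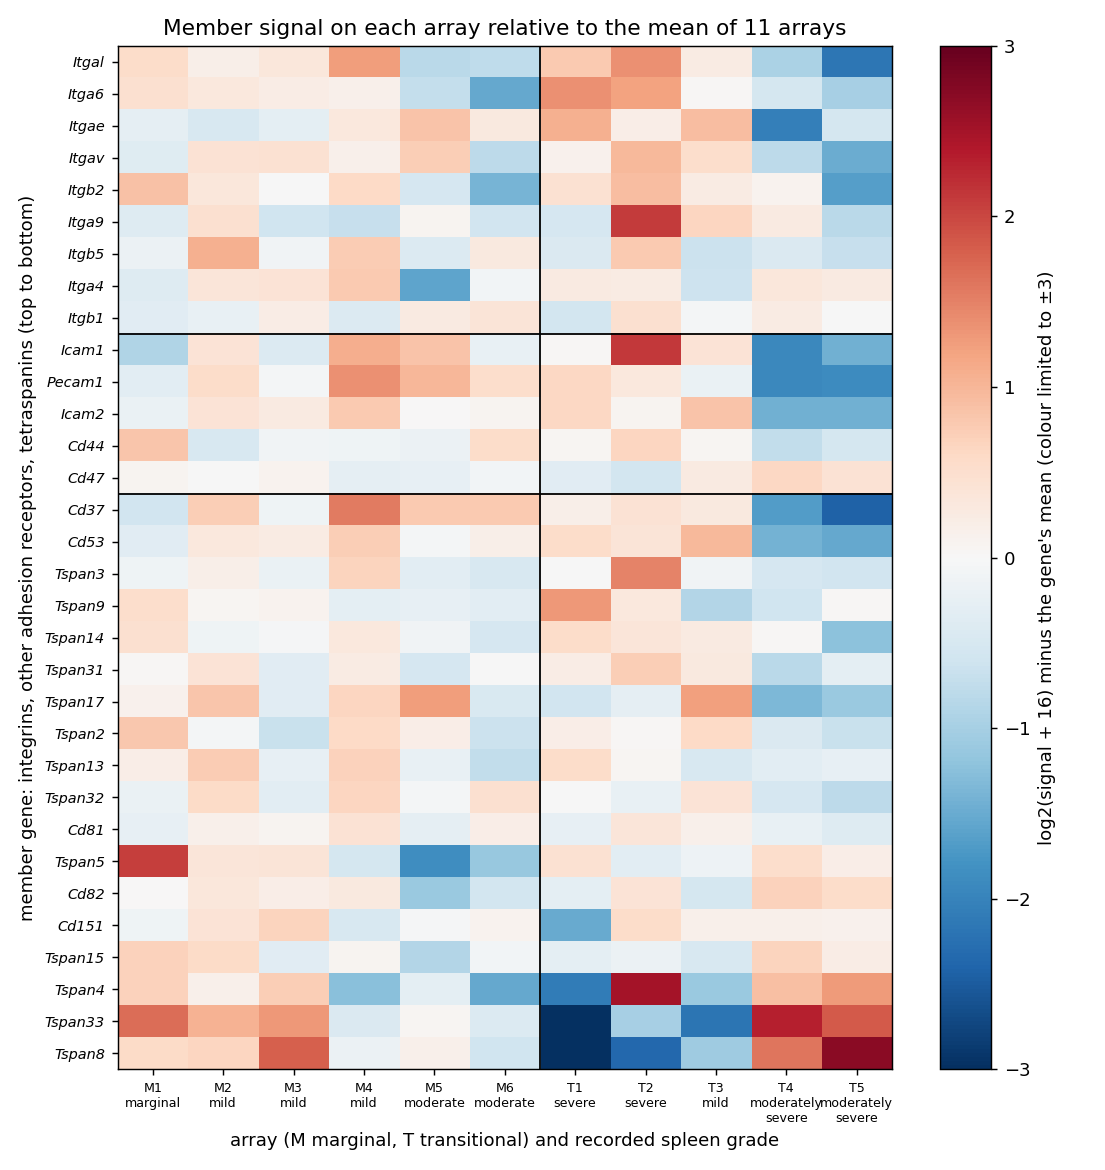
Each row is one of the 32 tested members and each column an array, with its recorded spleen grade; colour gives log2(signal + 16) minus the gene's mean over the 11 arrays. Transitional 4 and 5 are blue for Itgal, Itga6, Itgae, Itgav, Icam1, Icam2, Pecam1, Cd37 and Cd53, and red for Tspan33 and Tspan8, both of which are blue on transitional 1, 2 and 3.

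The first comparison asked whether the members differed between the severity classes. None of the 32 passed the limma test at an adjusted p of 0.05 (smallest adjusted p = 0.999), and none of the 13576 tested probe sets did (0%). Without adjustment, 1 member was under 0.05, against 3.34% of all probe sets. The mean was lower in transitional lymphomas for 20 members and higher for 12, with a median log2 difference of −0.14, against −0.06 over all probe sets. The members' median was 0.03 with transitional 5 left out and 0.08 without transitional 4 and 5. All differences are of log2(signal + 16), and the added 16 shrinks those of dim probe sets. No member had signals that separated the classes, and over all probe sets 0.103% were higher and 0.125% lower on every transitional than on every marginal array.

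Pecam1, the adhesion molecule CD31 of endothelium, platelets and leukocytes, had the smallest p. Its signal was 348 to 1154 on the marginal arrays (median 637) and 680, 547, 379, 102 and 106 on transitional 1 to 5. Only transitional 4 and 5 lay below the marginal arrays. The log2 difference was −1.12 (SE 0.51; adjusted p = 0.999 by limma). Cd37 followed, with 2568 to 11346 on the marginal arrays (median 6596) and 4376, 5231, 4737, 1197 and 710 on transitional 1 to 5. Transitional 1, 2 and 3 lay inside the marginal range here too, and the log2 difference was −1.17 (SE 0.56; adjusted p = 0.999). Its other probe set gave −1.63 (SE 0.70). The remaining members with the smallest p were Tspan17 at −0.75 (SE 0.48), Tspan32 at −0.41 (SE 0.26), Itgb5 at −0.53 (SE 0.34), Itga9 at 0.63 (SE 0.47), Tspan33 at −1.19 (SE 1.03) and Icam2 at −0.49 (SE 0.43). None of these passed. Icam2 was at 0.29 without transitional 4 and 5, and Itgb5 at 0.01 with the mean of its probe sets.

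Spleen grade was then tested as a trend over the 5 ranked grades, with class in the model. Again 0 of 32 members passed (smallest adjusted p = 1 by limma), as did 0% of all probe sets, and no member was under an unadjusted p of 0.05, against 2.20% of all probe sets. The members with the smallest p were Cd47 at −0.20 for each step of grade (SE 0.11), Tspan5 at −0.52 (SE 0.30), Tspan9 at 0.27 (SE 0.19) and Tspan2 at −0.25 (SE 0.18). Tspan5, a tetraspanin that escorts the protease Adam10, had a signal of 331 on marginal 1, the lymphoma whose spleen was graded marginal, and 6.4 to 102 elsewhere. Without transitional 3, whose spleen was graded mild, Tspan5 passed at −1.38 (adjusted p = 0.0302), while 1145 probe sets were then called in all.

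The third comparison set moderately severe (transitional 4 and 5) against severe spleens (transitional 1 and 2) within the transitional class. Here 12 of 32 members passed (37.5%), against 25.1% of all probe sets: 9 were lower (28.1%, against 15.2%) and 3 higher (9.38%, against 9.86%). Without adjustment 18 members were under 0.05 (39.5% of all probe sets). The median log2 difference was −0.88 over the members and −0.22 over all probe sets. With median scaling these medians were −0.50 and 0.16, and calls higher rose from 39.3% to 65.3% of all calls. Even so, 21 of 32 members were lower, against 22 as deposited. With 2 arrays of each grade, grade and the individual lymphoma cannot be told apart. The count over all probe sets was 1253 to 2146 with transitional 1, 2, 4 or 5 left out, against 3408 with all arrays, and 9 to 13 members were called with each array left out in turn. The marker sums above moved with this contrast: 7 of 7 tested erythroid markers were called higher, 8 of 8 T cell and 6 of 9 B cell markers lower, and 4 of 9 granulocyte markers higher. Their part in the members' differences was not tested.

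**Figure D2:**
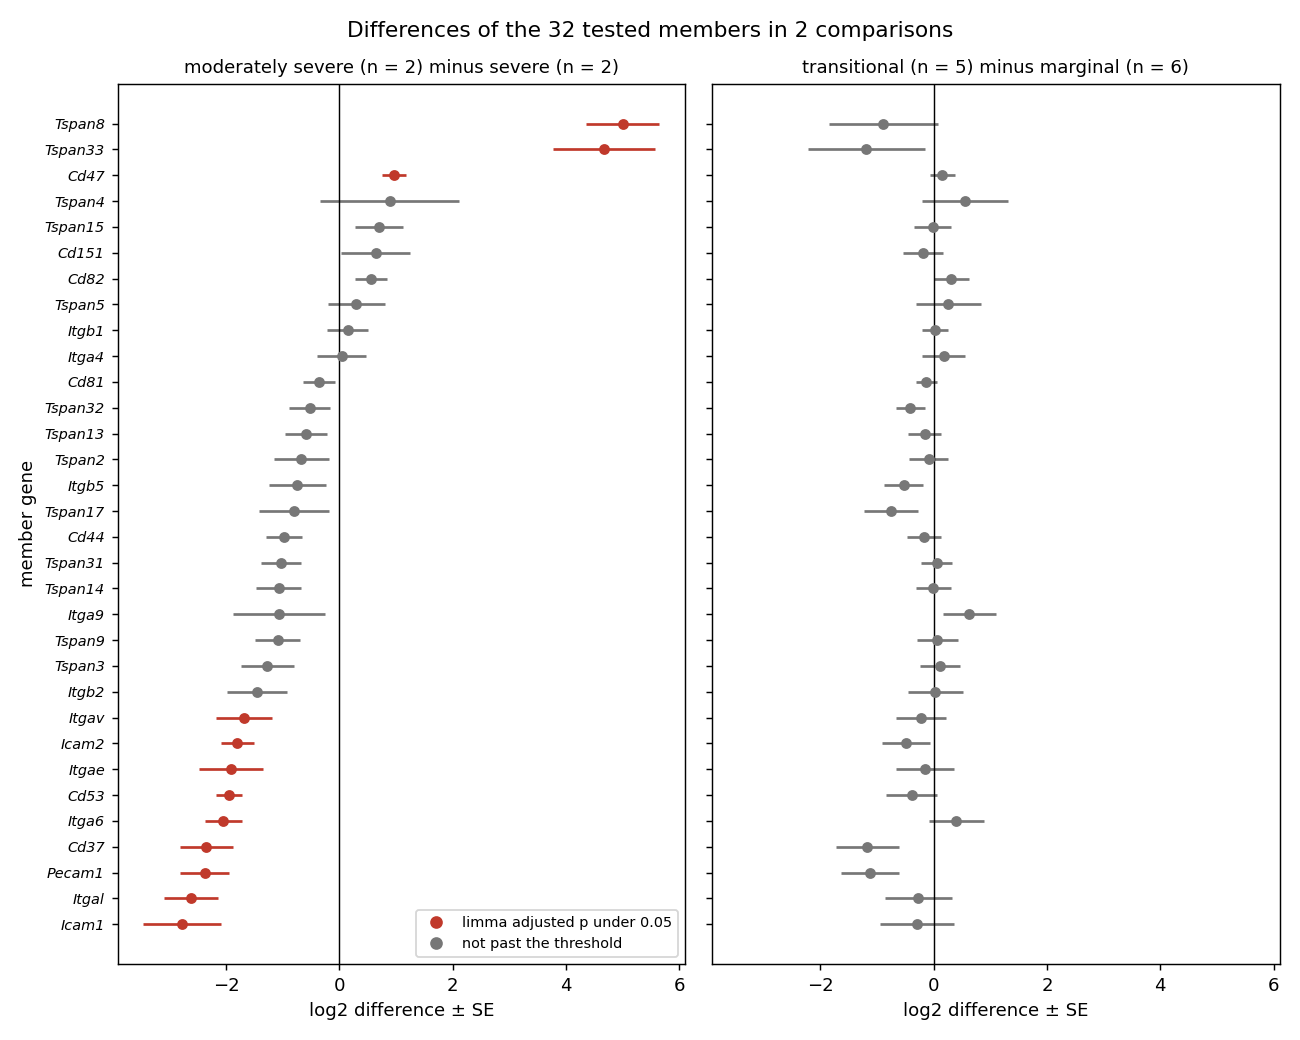
Points are the log2 differences of the 32 tested members and bars the standard errors, on the same horizontal scale in both panels; red marks an adjusted p under 0.05. In the left panel 9 members are called lower and Tspan8, Tspan33 and Cd47 higher in moderately severe than in severe spleens, and in the right panel no member is called between classes.

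Among the integrins 4 of 9 tested chains fell (44.4%, against 15.2% of all probe sets) and none rose (against 9.86%), and 2 of the 4 calls, Itgae and Itgav, were lost under several settings. Itgal, the alpha chain of LFA-1, had signals of 252 and 100 in the moderately severe and 870 and 1314 in the severe spleens. The mild transitional array had 594 and the marginal arrays 280 to 1220 (median 604), so transitional 4 and 5 were the lowest of all 11. The log2 difference was −2.62 (SE 0.47; adjusted p = 0.00598 by limma), or 6.15-fold. Its partner Itgb2 had 4028 and 1174 against 5085 and 7079, and 1415 to 6865 on the marginal arrays (adjusted p = 0.0714). Transitional 4 was near the severe arrays for this chain, and only transitional 5 was under the marginal range.

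Itga6, a laminin receptor chain, had signals of 178 and 125 in the moderately severe and 708 and 629 in the severe spleens, and 80.3 to 374 on the marginal arrays (median 303). The severe arrays were here the 2 highest of the 11, and the moderately severe arrays lay within the marginal range. The log2 difference was −2.05 (SE 0.33; adjusted p = 0.00424), and −2.83 (SE 0.54) with its other probe set. Against all 3 other transitional arrays it was −1.63 (adjusted p = 0.0582). Itgae, which pairs with Itgb7 to bind E-cadherin, had 8.6 and 54.6 against 196 and 100 (−1.91, SE 0.57; adjusted p = 0.0374). Itgav, the alpha chain of receptors for vitronectin and other matrix proteins, had 281 and 164 against 538 and 984 (−1.68, SE 0.50; adjusted p = 0.0378). Both calls depended on single arrays. Without transitional 4 the Itgae difference was −1.15 (adjusted p = 0.218), and without transitional 1 it was −1.48 (adjusted p = 0.183). Its signal of 8.6 lies under the added offset, and the difference was −2.61 with an offset of 1 and −1.15 with an offset of 64. The Itgav difference was −0.74 with the mean of its probe sets (adjusted p = 0.0988). The call of Itgav was lost without transitional 2, 4 or 5 (adjusted p = 0.0633 to 0.198) and after quantile normalization (adjusted p = 0.0669).

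The chains of VLA-4 did not pass. Itga4 had signals of 769 and 731 in the moderately severe and 735 and 723 in the severe spleens, nearly the same on all 4 arrays (log2 difference 0.04, SE 0.43). Its range over the marginal arrays was 194 to 1068. Another Itga4 probe set, with a mean signal of 457, gave −0.51 (SE 0.35, adjusted p = 0.315). Itgb1 had 1845 and 1542 against 1055 and 2186 (0.15, SE 0.36), with the severe arrays on either side of the others. Another Itgb1 probe set, with a mean signal of 912, gave −1.22 (SE 0.40; adjusted p = 0.0537), so the probe sets of this chain disagreed.

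The ligands of LFA-1 among the members were lower as well. Icam2, carried by lymphocytes and endothelium, had signals of 280 and 276 in the moderately severe and 1216 and 829 in the severe spleens. The other transitional array had 1421 and the marginal arrays 681 to 1357 (median 887). The moderately severe arrays were thus below all others, at a log2 difference of −1.80 (SE 0.29; adjusted p = 0.00403), or 3.47-fold. Icam1, which inflammatory signals induce, had 183 and 266 against 764 and 3312, and 390 to 1606 on the marginal arrays (−2.77, SE 0.69; adjusted p = 0.0194). Its value on transitional 2 was above every other array, and without that array the difference was −1.72 (adjusted p = 0.0973). The call was also lost without transitional 4 or 5 (adjusted p = 0.0946 and 0.0654).

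Pecam1 had signals of 102 and 106 in the moderately severe and 680 and 547 in the severe spleens (log2 difference −2.38, SE 0.43; adjusted p = 0.00599), a 5.22-fold difference. Of 9 endothelial markers 1 was bright enough to be tested and was not called, and the 9 summed to 255 to 359 on transitional 4 and 5 and 325 to 1205 on transitional 1 and 2. Their part in the Pecam1 signal was not tested. The 6 tested megakaryocyte markers had 0 calls, with sums of 1658 to 2438 and 412 to 4910. Cd44, the hyaluronan receptor, had 1559 and 1807 against 2702 and 4043, lowest on the moderately severe arrays. It lay just outside the threshold (−0.97, SE 0.32, adjusted p = 0.0507). Its difference was −0.59 with median scaling (adjusted p = 0.248) and −1.06 after quantile normalization (adjusted p = 0.0409). The other Cd44 probe set gave −0.34 (SE 0.59, adjusted p = 0.703).

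Cd47, the signal that keeps macrophages from engulfing a cell, rose. Its signal was 13091 and 11413 in the moderately severe and 6682 and 5791 in the severe spleens, with 7089 to 9147 on the marginal arrays and 10217 on transitional 3. The moderately severe arrays were the highest of the 11 and the severe arrays the lowest. The log2 difference was 0.97 (SE 0.21; adjusted p = 0.0110), or 1.96-fold. The other 2 tested probe sets of Cd47 gave 0.28 (SE 0.32) and 0.00 (SE 0.38), and the mean of all of them gave 0.29 (adjusted p = 0.602). The call was also lost without transitional 2 or 4 (adjusted p = 0.0674 and 0.0728).

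Among the 18 tested tetraspanins 2 fell and 2 rose, 22.2% in all against 25.1% of all probe sets, so their share of calls was near the background. Cd53, a tetraspanin of all leukocytes, had signals of 2741 and 2549 in the moderately severe and 10872 and 9633 in the severe spleens. The marginal arrays had 5836 to 12279 (median 8519) and transitional 3 had 14480, so no other array came near the moderately severe ones. The log2 difference was −1.95 (SE 0.23; adjusted p = 0.00259), or 3.85-fold. Cd37, whose signals are given above, differed by −2.35 (SE 0.47; adjusted p = 0.00839), or 5.11-fold. Its other probe set gave −2.48 (SE 0.51; adjusted p = 0.00954). Without transitional 5 the Cd37 difference was −1.98 (adjusted p = 0.0613).

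Tspan33 and Tspan8 showed the reverse. Tspan33, a tetraspanin of red cell precursors and activated B cells, had signals of 8329 and 5917 in the moderately severe and 73.9 and 822 in the severe spleens. The mild transitional array had 346 and the marginal arrays 1226 to 5316 (median 2568), so the other transitional arrays lay below every marginal array and the moderately severe above. The log2 difference was 4.68 (SE 0.90; adjusted p = 0.00752), or 25.6-fold, and 4.18 to 4.71 with its other 3 probe sets. It was 3.07 without transitional 1 (adjusted p = 0.0211). Tspan8, best known from epithelial tumours, had 582 and 1256 against 3.5 and 21.9, with 77.3 on transitional 3 and 114 to 662 on the marginal arrays (5.0, SE 0.65; adjusted p = 0.00273). Its signal on transitional 1 and 2 was far below the added offset or near it, and the difference was 6.40 with an offset of 1 and 3.60 with an offset of 64.

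**Figure D3:**
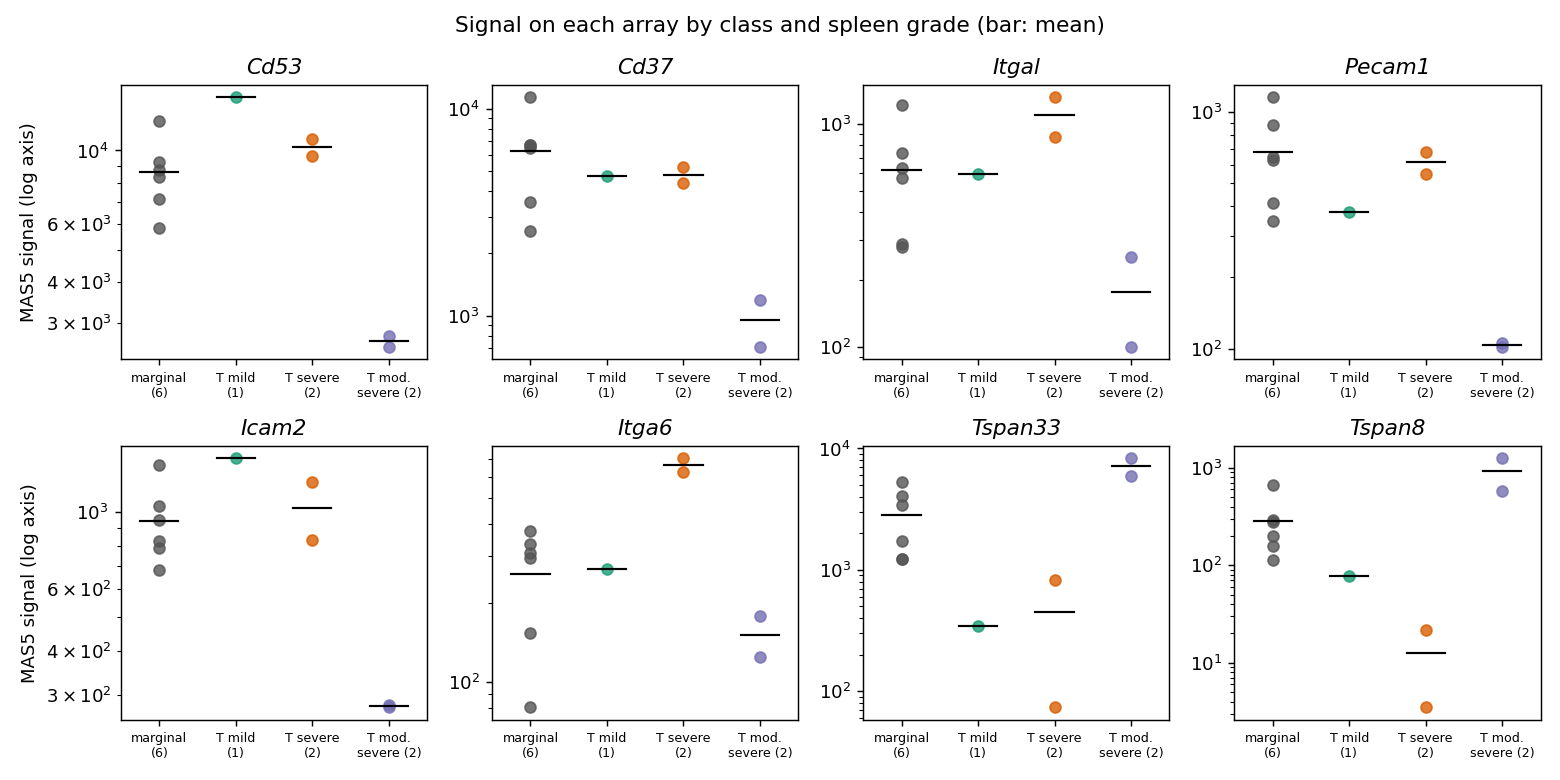
Points are the deposited signals of 8 members on single arrays (vertical log axis), grouped as marginal (6 arrays), transitional mild (1), transitional severe (2) and transitional moderately severe (2), with bars at the means. Cd53, Cd37, Itgal, Pecam1 and Icam2 are lowest on both moderately severe arrays, Itga6 is highest on both severe arrays, Tspan33 is highest on both moderately severe arrays and Tspan8 lowest on both severe arrays.

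The promoters of 4 called tetraspanin genes are shown because these genes moved in opposite directions on the same arrays. Each is 250 bases before and 50 after the annotated start, from RefSeq on GRCm38.p6, 5′ to 3′ on the gene's strand as the table gives it: Cd37 at chr7:45238790-45239089 (minus strand), Cd53 at chr3:106790100-106790399 (minus), Tspan33 at chr6:29693964-29694263 (plus) and Tspan8 at chr10:115817034-115817333 (plus). Capitals mark the letters GAGGAAG, read here as CTTCCTC because both matches lie on the opposite strand, part of sites that Ets factors such as PU.1 are known to bind.
Cd37: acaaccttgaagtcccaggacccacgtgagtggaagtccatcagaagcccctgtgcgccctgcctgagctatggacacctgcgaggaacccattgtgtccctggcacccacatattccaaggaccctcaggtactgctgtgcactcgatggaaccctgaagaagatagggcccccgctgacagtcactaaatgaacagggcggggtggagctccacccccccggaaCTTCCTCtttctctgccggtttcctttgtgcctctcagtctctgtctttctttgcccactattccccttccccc
Cd53: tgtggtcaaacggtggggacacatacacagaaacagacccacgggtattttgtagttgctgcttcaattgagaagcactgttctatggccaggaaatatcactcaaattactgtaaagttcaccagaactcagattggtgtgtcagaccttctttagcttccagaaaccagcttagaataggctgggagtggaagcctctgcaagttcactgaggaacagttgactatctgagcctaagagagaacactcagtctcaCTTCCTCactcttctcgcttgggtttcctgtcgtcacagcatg
Tspan33: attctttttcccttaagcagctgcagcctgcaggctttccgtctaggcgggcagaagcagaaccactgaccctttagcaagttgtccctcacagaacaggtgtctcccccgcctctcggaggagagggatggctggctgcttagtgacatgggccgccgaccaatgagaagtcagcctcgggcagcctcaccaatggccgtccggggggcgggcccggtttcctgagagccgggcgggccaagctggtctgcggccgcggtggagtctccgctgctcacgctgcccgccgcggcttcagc
Tspan8: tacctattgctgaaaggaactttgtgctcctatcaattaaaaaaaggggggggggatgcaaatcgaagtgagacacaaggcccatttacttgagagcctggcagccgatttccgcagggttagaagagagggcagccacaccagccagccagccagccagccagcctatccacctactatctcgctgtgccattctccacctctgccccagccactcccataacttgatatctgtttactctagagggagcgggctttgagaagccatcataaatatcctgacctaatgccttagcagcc
The GAGGAAG letters stood in 3 of 4 promoters of members called lower that the table holds (Cd37, Cd53 and Itgav, but not Icam1) and in 0 of 3 of those called higher. Of all 27025 promoters 13.5% hold them, and 9 of the 37 members with a listed promoter do. The GATA letters AGATAA, also searched on both strands, were in 0 of these 7 promoters and in 11.4% of all. The motifs were chosen after the calls were known, and a match is a description of letters, not of binding.

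The other 14 tested tetraspanins did not pass in this contrast. Cd81, a widely expressed tetraspanin, had signals of 3008 and 2699 against 2950 and 4514, and ran from 2699 to 4764 over all 11 arrays. Cd82 had 5344 and 4865 against 2712 and 4395, the highest on the moderately severe arrays. Its log2 difference was 0.56 (SE 0.29, adjusted p = 0.178). It was 0.94 with median scaling (adjusted p = 0.0482) and 0.44 after quantile normalization (adjusted p = 0.301). Another Cd82 probe set, with a mean signal of 92, went the other way (−0.97, SE 0.39, adjusted p = 0.0976). Tspan4 had 316 and 412 against 25.5 and 987, with the severe arrays at both ends of the range. Tspan13, Tspan14, Tspan31, Tspan3 and Tspan9 had differences of −0.59 to −1.27, and those of Tspan2, Tspan5, Tspan15, Tspan17, Tspan32 and Cd151 were −0.80 to 0.70. Over all members, both moderately severe arrays lay below the other 9 for 11 of 32 (34.4%, against 20.3% of all probe sets) and above them for 3 (9.38%, against 12.6%). They lay below both severe arrays for 19 (59.4%, against 43.3%) and above both for 5 (15.6%, against 26.4%).

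Called members varied over the arrays with the marker lists, most of them with several lists that also vary together. Over the 11 arrays, Tspan33 followed the erythroid score, the mean log2 deviation of 7 tested markers (Pearson r = 0.984, permutation p = 1e-05, the smallest that 100000 permutations can give; Spearman rho = 0.991, permutation p = 2e-05), and r was 0.978 with transitional 1 and 4 left out. Tspan8 did so too (r = 0.951, permutation p = 1e-05, also the smallest; rho = 0.945, permutation p = 3e-05), and r was 0.921 with the same arrays left out. Cd37 followed the B cell score (r = 0.958, permutation p = 2e-05; rho = 0.866, permutation p = 0.0008), with r = 0.826 when transitional 4 and 5 were left out. So did Pecam1 (r = 0.949, permutation p = 0.00017; rho = 0.866, permutation p = 0.00086), with r = 0.760 when they were left out. Itgal followed the T cell score (r = 0.925, permutation p = 0.00014; rho = 0.882, permutation p = 0.00071), and r was 0.903 with transitional 1 and 5 left out. These 5, each the strongest of its member, are of 48 relations computed between the 12 called members and 4 lists, with adjusted permutation p of 0.00024 to 0.00163 for r and 0.00072 to 0.0059 for rho. Of the 48, 33 had an adjusted permutation p under 0.05 for r and 26 for rho. The 12 members were called in a contrast in which these 4 lists also moved, so passing was favoured beforehand. The permutations do not allow for that choice, and the share over other genes was not computed. For r, 10 of the 12 members passed with more than 1 list, Cd47 and Icam1 with all 4, and Itga6 and Itgal with only the T cell list of these 4. Natural killer (NK) cell markers were not among the 4 lists, though 3 of 5 tested were called lower in the contrast. They summed to 842 to 1092 on transitional 4 and 5 and 5559 to 5593 on transitional 1 and 2. Their relation to the members was not computed, so the T cell relations are not shown to be particular to T cells.

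The members were called on some of the same arrays, and all signals of an array share its scaling. Within the 6 marginal arrays, which the contrast did not compare, r was 0.984 for Tspan33 and 0.870 for Tspan8 with the erythroid score (both exact permutation p = 0.00972). It was 0.925 for Cd37 (exact permutation p = 0.00556) and 0.946 for Pecam1 (exact permutation p = 0.00278) with the B cell score, and 0.841 for Itgal with the T cell score (exact permutation p = 0.0472). After adjustment over the 48 relations these were 0.0667 to 0.181, and none passed. Within these arrays Cd37 and Pecam1 also ran against the erythroid score (r = −0.861 and −0.856) and the granulocyte score (r = −0.856 and −0.829). Those relations did not pass after adjustment either. Marginal 1, 2 and 3 had Tspan33 signals of 5316, 3411 and 4077 beside erythroid scores of 1.42, 0.90 and 1.5. Marginal 4, 5 and 6 had 1226, 1724 and 1234 beside −0.48, −0.11 and −0.42. The granulocyte scores split these arrays alike, at 3.21, 0.69 and 2.47 on marginal 1, 2 and 3 and −1.44, −1.57 and −2.36 on marginal 4, 5 and 6. Tspan33 also followed that score over all arrays (r = 0.838, permutation p = 0.00087, adjusted 0.00597; rho = 0.782, permutation p = 0.00615, adjusted 0.0246) and within the marginal arrays (r = 0.968, exact permutation p = 0.0111, adjusted 0.0762). Cd53 followed the B cell score at r = 0.899 (permutation p = 0.00179, rho = 0.688, permutation p = 0.0226, adjusted 0.0078 and 0.0434). That relation was weaker, at r = 0.471, when transitional 4 and 5 were left out. Within the marginal arrays Cd53 had r = 0.716 with the B cell score (exact permutation p = 0.106, adjusted 0.239). It also followed the T cell score (r = 0.827, permutation p = 0.00169; rho = 0.882, permutation p = 0.00066; adjusted 0.0078 and 0.0059), with r = 0.714 when transitional 1 and 5 were left out, and ran against the erythroid score (r = −0.739, permutation p = 0.00864; rho = −0.845, permutation p = 0.00201; adjusted 0.0244 and 0.0121), with r = −0.725 when transitional 1 and 4 were left out.

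**Figure D4:**
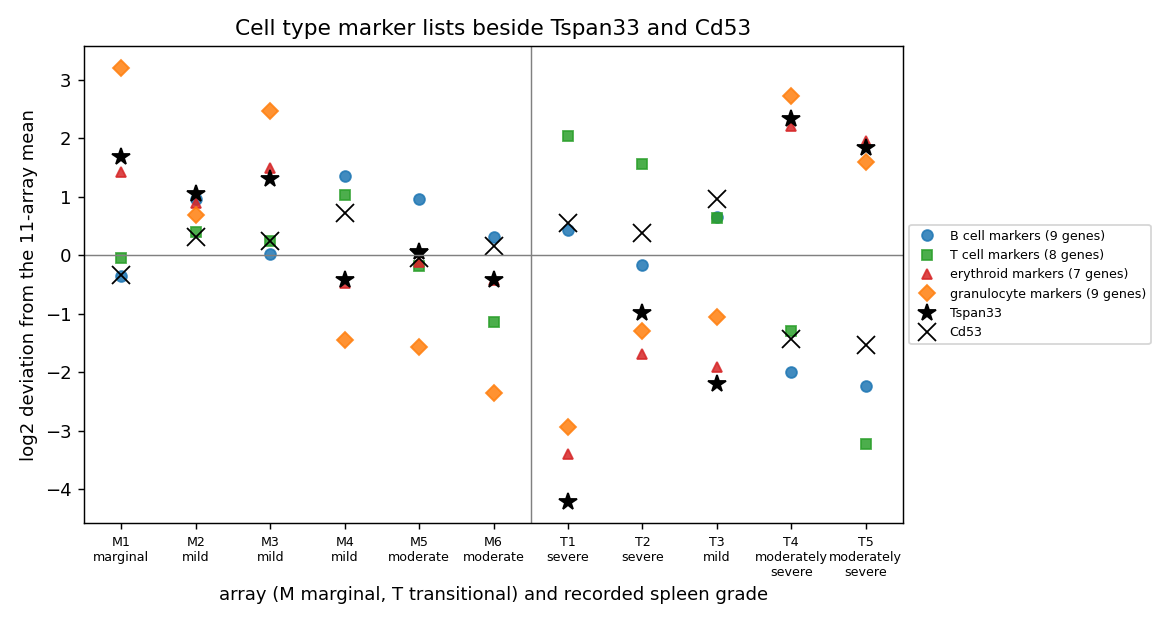
Points give, for each array, the mean log2 deviation of 4 marker lists from their 11-array means, and black symbols the deviation of Tspan33 and Cd53 on the log2(signal + 16) scale. Tspan33 lies beside the erythroid markers on most arrays, and Cd53 is low on transitional 4 and 5, where B and T cell markers are low.

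Several members were brightest on transitional 2, a severe spleen. Icam1 had 3312 there, Tspan4 had 987, Tspan3 had 1014 and Itga9 had 333, each above every other array (at most 1606, 412, 572 and 111). Itgal, Itgav, Itgb1, Itgb2 and Tspan31 were also highest there, by smaller margins. The share of all probe sets highest on this array was not computed, so a trait of the members cannot be told from one of the array. On this array the 8 stroma markers summed to 4824, against 169 to 387 elsewhere, and the 8 macrophage markers to 31503, against 1498 to 9432. The 6 megakaryocyte markers (4910, against 412 to 2507) and the 9 endothelial markers (1205, against 201 to 445) were also highest there. The part of those cells in these signals was not tested.

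The integrin machinery was read from fixed lists of genes. Of 32 integrin regulators and adaptors, not all of which switch integrins on, 27 had a probe set and 22 were tested. Between classes 0 were called, with a median of −0.19. Between moderately severe and severe spleens 6 were called lower and 0 higher, where 15.2% and 9.86% of all probe sets were, with a median of −0.43. The 6 were Rassf5, Cyth1, Dock2, Rasgrp2, Ptk2b and Sharpin. Rassf5, the Rap1 effector that switches on LFA-1, was at −1.76 (SE 0.45; adjusted p = 0.0218) and Cyth1, which binds the beta 2 tail, at −2.07 (SE 0.40; adjusted p = 0.00780), both lost without transitional 5 (adjusted p = 0.146 and 0.0559). Rassf5 was then at −1.14, and was also lost without transitional 1 (adjusted p = 0.123). The talin gene Tln1 was at −0.38 (SE 0.35; adjusted p = 0.453 by limma), which did not pass. Nor did the kindlin gene Fermt3 at −0.49 (SE 0.27; adjusted p = 0.215). Of the 22 genes 18 were lower and 4 higher. The higher ones included Vcl at 1.01 (SE 0.37) and Ilk at 0.79 (SE 0.26), neither of them called. Between classes Rassf5 was at −0.71 (SE 0.41) and the focal adhesion adaptor Pxn at −0.55 (SE 0.34), neither of which passed.

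Of 24 ligands and counter-receptors 9 were tested, with 0 calls between classes, where F11r was at 0.87 (SE 0.51) and Nid1 at −1.52 (SE 0.97). In the contrast of spleen grades 2 were called higher (Icam4 and Fn1) and 2 lower (Nid1 and Madcam1), where 9.86% and 15.2% of all probe sets were. The fibronectin gene Fn1 was at 1.51 (SE 0.46; adjusted p = 0.0392 by limma) and Madcam1 at −2.75 (SE 0.70; adjusted p = 0.0203). These calls of Fn1 and Madcam1 were not followed through the alternative settings. Icam4, the red cell adhesion molecule that binds integrins, had signals of 3966 and 2851 in the moderately severe and 22.0 and 110 in the severe spleens (log2 difference 5.61, SE 0.74; adjusted p = 0.00279). The basement membrane gene Nid1 was at −3.84 (SE 0.86; adjusted p = 0.0128), a call lost without transitional 5 (−2.55, adjusted p = 0.0797) or transitional 2 (−2.98, adjusted p = 0.0686). Nid1 had a signal of 5.5 on transitional 5, and its difference was −4.76 with an offset of 1 and −2.87 with an offset of 64. The tetraspanin partners had 10 tested genes, with 1 called higher and 1 lower in that contrast, 2 of 10 against 25.1% of all probe sets. Adam10, a membrane protease, was at 0.95 (SE 0.27; adjusted p = 0.0314), a call lost on leaving out any 1 of transitional 1, 2, 4 and 5 (adjusted p = 0.0719 to 0.149). Cr2 was at −1.75 (SE 0.70) and Sdcbp at 0.33 (SE 0.33) between classes, without passing. Of the 4 integrin chains outside the members, Itgb7 was called lower at −2.42 (SE 0.43; adjusted p = 0.00586). Itga2b was at 0.42 (SE 0.35) and Itgam at −0.54 (SE 0.77) between classes, without passing. Icam4, Itgb7, Cyth1 and Adam10 were picked after their values were seen. The same holds for other genes named from these lists beyond the 2 with the smallest p between classes.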

How the data were processed

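The authors deposited 1 table of linear array intensities for 22690 probe sets, made with MAS5 according to the submitters' processing notes, version not given in the sources used here. Per the labels' protocols, biotin-labelled cRNA was made from poly-dT primed cDNA of total RNA. The 2% trimmed mean is 500.2 on all 11 arrays, so a change of most transcripts in the same direction would not be seen. Median signals ran from 98.8 to 151, and the number of arrays limits the precision. The labels give no animal numbers, batch or scan record, so p-values measure the spread between these arrays. No pair of arrays held identical values.

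After dropping 64 controls and adding 16 before log2, the upper 60% of 22626 probe sets by mean (13576) were tested in R 4.3.3 by limma 3.58.1 (trended eBayes; two-sided p adjusted by Benjamini-Hochberg over all 13576; threshold 0.05). The grade contrast was taken from a fit of 6 class-by-grade groups with 5 residual degrees of freedom. Gene symbols of the GEO platform table were brought up to date by Entrez identifier with RefSeq (GRCm38.p6): 20380 probe sets had 1 gene, 691 several and 1555 none. Named members were those called, the 8 (classes) or 4 (other comparisons) with the smallest p, the 6 brightest and the 4 with the largest SD, and of each pathway list the 2 with the smallest p between classes. Members and lists were chosen with earlier results of these data known. Sample numbers did not pair arrays: deviations of same-numbered arrays correlated at −0.45 to −0.09. The code of the fits was checked on simulated data with independent noise, smaller than the spread of these arrays. That check does not bear on the calls.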

Additional observations from a re-analysis of the deposited data

Results flagged for a closer look

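Itgb5, an integrin beta chain of matrix receptors, had a signal of 292 on transitional 2, where the other 4 transitional arrays lay between 93.8 and 116. The gap to the nearest array was 0.818 of the whole range on the log2 scale. This was the only such array among 46 groups of the named members that were looked at, and chance alone flags about 1 group in 20. Its class difference was 0.01 in place of −0.53 with the mean of the tested and untested probe sets of the gene.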

How the results depend on the processing

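Between classes, no member and no probe set was called under any alternative, including the fit with the sample number as a replicate block (0 members called). No pair of numbers met the rule for pairing. Signs turned for Icam2 without the moderately severe arrays (0.29), for Itgb5 with the mean of its probe sets (0.01) and for Sdcbp with array weights (−0.07) and without the moderately severe arrays (−0.03). The grade trend, with 0 calls also under the replicate block, called 0 to 1145 probe sets and 0 to 1 members with each array left out in turn. The highest counts came without transitional 3. Moderately severe against severe spleens called 1253 to 3659 probe sets and 9 to 13 members with each array left out in turn. A replicate block was not fitted to this comparison. Of its 12 called members, 6 kept the call in each of the alternatives that tested them (Cd53, Icam2, Itgal, Pecam1, Tspan33 and Tspan8). Itgae and Itgav lost it after quantile normalization, median scaling and without the filter, and Itgae also with only the 4 arrays compared. That setting and the comparison with 3 other transitional arrays were chosen after seeing the data. The cause of these losses was not tested.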
